A study of Mus musculus with 10 samples.

Results

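The LIF-STAT3 and FGF pathway components described here are 8 genes, namely Lifr, Il6st, Jak1, Stat3, Socs3, Fgf4, Fgfr1 and Fgfr2. They were chosen by name, as every probe set of the Affymetrix GeneChip 430 2.0 array whose gene symbol in the platform annotation is exactly one of these. That gave 27 probe sets of 45101 in the deposited table. A probe set is a group of short probes that reads a transcript, and a gene can have several. Of the 27, 26 exceeded the median signal of the array on 2 or more arrays and were tested, as were 27505 of the 45037 probe sets that are no controls. The remaining one, 1443211_at of Fgfr2, lay below the median of all 10 arrays.

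The arrays hold RNA of 3 groups of sorted mouse cells. AG-haESC are haploid embryonic stem cells from androgenetic blastocysts, which carry only a paternal genome, on the C57BL/6J background at passages 12 to 15. The 5 arrays are 5 lines, AGH-OG-1, AGH-OG-2, AGH-EG-1, AGH-OG-3 and AGH-OG-4 (AG-haESC replicates 1 to 5), where the OG lines carry an Oct4-EGFP transgene and the EG line an Actin-EGFP transgene. E14, a diploid male embryonic stem cell line of 129/Sv background, was labelled wild type and read on 3 arrays at passage 17. MEF, embryonic fibroblasts of B6D2F1 background from a male d13.5 embryo, also wild type, were read on 2 arrays at passage 2. Before sorting, DNA was stained with 15 µg/ml of Hoechst 33342, and the 1n peak was sorted for AG-haESC and the 2n peak for E14 and MEF. Per the labels AG-haESC grew on feeder cells in ES medium with CHIR99021, an inhibitor of the kinase GSK3, and PD0325901, an inhibitor of MEK. The sources used here do not give the medium of E14 or MEF, nor whether LIF was added. Ploidy, parental origin, strain, passage, transgene and possibly medium differ together between AG-haESC and E14 and cannot be told apart.

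Leukaemia inhibitory factor (LIF) binds a receptor made of Lifr and the shared signalling chain gp130, encoded by Il6st. The receptor activates JAK kinases, which phosphorylate the transcription factor STAT3, and STAT3 induces its own pathway's inhibitor, Socs3. LIF holds mouse embryonic stem cells in self-renewal, while FGF4, which these cells secrete, acts through FGF receptors and the RAS-ERK cascade and primes them for differentiation. MEK inhibition blocks that cascade, and FGF receptors and gp130 also act in fibroblasts.

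Sequences upstream of the annotated starts are shown for the members with the largest difference between stem cells and fibroblasts in each direction, Fgf4 and Il6st, and for the STAT-type match near Socs3. They come from RefSeq on build GRCm38.p6, where 7 of the 8 members had an entry and Fgfr1 had none. Each is written 5′ to 3′ on the strand of the gene. The 250 bases before the start of Fgf4 lie at chr7:144861136-144861385 (plus strand) and those before the start of Il6st at chr13:112463820-112464069 (plus strand). Capitals mark GGGCGG, the GC box, on either strand. The Socs3 stretch is 30 bases long and lies at chr11:117969501-117969530 (minus strand), and its capitals mark the match to TTCNNNGAA, the palindrome that STAT dimers recognise.
Fgf4: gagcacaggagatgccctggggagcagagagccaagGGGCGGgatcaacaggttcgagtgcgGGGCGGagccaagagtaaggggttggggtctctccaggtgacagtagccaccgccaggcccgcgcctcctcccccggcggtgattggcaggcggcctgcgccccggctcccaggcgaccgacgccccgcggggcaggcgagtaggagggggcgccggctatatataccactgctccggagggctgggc
Il6st: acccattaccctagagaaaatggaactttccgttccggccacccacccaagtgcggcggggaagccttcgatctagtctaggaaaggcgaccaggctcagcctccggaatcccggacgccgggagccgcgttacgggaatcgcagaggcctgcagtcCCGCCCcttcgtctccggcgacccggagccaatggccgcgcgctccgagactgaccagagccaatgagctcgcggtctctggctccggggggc
Socs3: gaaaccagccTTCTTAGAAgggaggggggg

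The GC box stood in 2 places before Fgf4 and in 1 before Il6st. Of 32851 annotated promoters 32.7% held it within the same 250 bases, so its presence sets neither gene apart. The STAT palindrome was found in the window of Socs3 alone among the 7 members, from base 154 to base 146 before the start, and 7.02% of all promoters held one. A match of letters is no evidence of binding.

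The labelled cell types were checked against defining markers. Of 9 stem cell markers, among them Pou5f1, Nanog and Sox2, all 9 lay above the array median in each of the 8 stem cell arrays, and their summed signal was 111276 to 122447 in AG-haESC, 106412 to 115267 in E14 and 430 to 542 in MEF. Of 17 fibroblast markers such as Col1a1, Thy1 and Pdgfra the summed signal was 191663 to 228169 in MEF, 4599 to 14778 in AG-haESC and 2876 to 5245 in E14, and 7 of the 17 were called higher in AG-haESC than in E14. Of the 17, 0 were called lower. On single arrays 15 to 17 of them exceeded the array median in AG-haESC and 10 to 11 in E14. Col1a1, Postn and Lum lay below it on all 3 E14 arrays. The mean log2 signal went the other way for Pdgfrb (7.32 in AG-haESC, 8.05 in E14), Fbln1 (9.40 and 9.75) and Twist1 (6.15 and 6.30). Primed epiblast markers, 7 of 8 on the array, summed to 9415 and 8422 in E14 replicates 1 and 2 and to 5993 to 7672 in AG-haESC. E14 replicate 3 stood apart from the other stem cell arrays, at 23497. The same sum was 14393 and 15452 in MEF, where Sox4 alone read 13961 to 14855. In E14 Dnmt3b reached 14513. The sum is therefore not specific to a primed state. Array medians lay between 55.9 and 68.0 on the linear scale, about 6 on the log2 scale, and signals near or below them hold much background. The arrays are bulk samples, in which fewer cells of a type and less RNA per cell cannot be told apart.

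Between AG-haESC and E14 calls were about as rare among member probe sets as among all probe sets. Between either stem cell group and MEF most member probe sets were called. There the calls higher were near the share over all probe sets and the calls lower above it. In AG-haESC against E14, 1 of 26 probe sets was called higher and 0 lower (limma, adjusted p below 0.05 and at least 2-fold). Over all 27505 probe sets tested, 4.37% were called higher and 2.89% lower. At an unadjusted p below 0.05, without the fold requirement, 4 were higher and 1 lower. The groups' arrays did not overlap for 3 of the 26, against 20.2% of all probe sets. In AG-haESC against MEF, 5 of 26 were called higher and 10 lower, where the background was 19.2% and 20.0%, and the groups did not overlap for 19, against 65.0%. In E14 against MEF, 6 were called higher and 12 lower, where the background was 19.8% and 19.1%, and 22 did not overlap, against 69.9%. The median difference over the 26 was 0.19 for AG-haESC against E14, -0.40 for AG-haESC against MEF and -0.76 for E14 against MEF (log2), beside -0.069, 0.079 and 0.13 over all probe sets. The last 2 comparisons share the MEF arrays and are not independent. Their calls include probe sets that entered the test only through the group where they are high. These are 1421239_at of Il6st, through MEF, and 3 of Fgf4, through the stem cells.

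**Figure D1:**
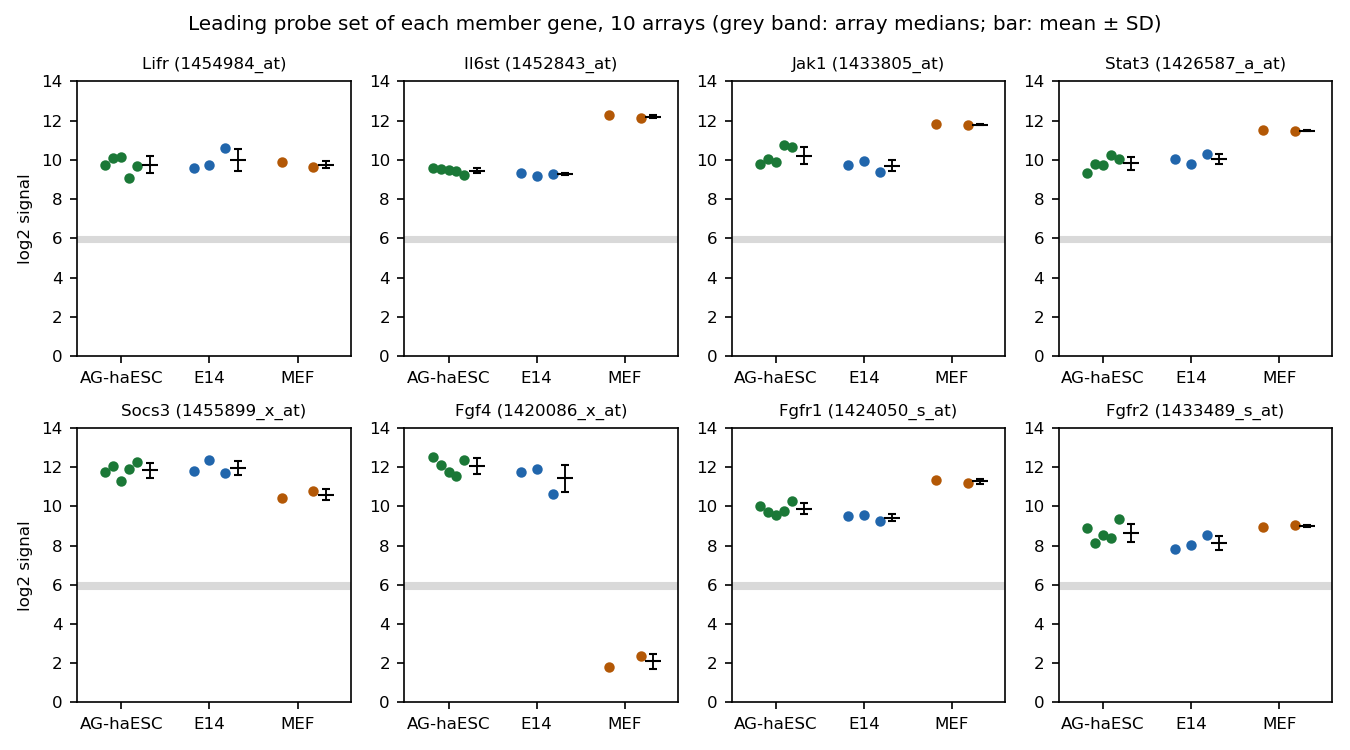
Log2 signal of the leading (brightest) probe set of each of the 8 genes on all 10 arrays, with a dot for each array, the group mean ± SD as a bar and the range of the array medians as a grey band. Il6st, Jak1, Stat3 and Fgfr1 are higher in the 2 MEF arrays than in every stem cell array, Fgf4 is below the band in MEF, and Lifr overlaps in all groups.

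Values below are log2 signals. For each gene the leading probe set is the one with the highest mean over the 10 arrays, and the others follow. Signals of different probe sets or genes are not set against each other, since each probe set has its own response. Probe sets whose name ends in _s_at or _x_at can also read related transcripts.

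Lifr, the LIF-binding chain of the receptor, showed no difference between the groups that passed the test. On 1454984_at it read 9.76, 10.11, 10.15, 9.08 and 9.69 in AG-haESC replicates 1 to 5, then 9.60, 9.74 and 10.61 in E14 and 9.88 and 9.65 in MEF. The arrays of all groups overlapped, and the highest value was that of E14 replicate 3. The difference was -0.22 ± 0.28 (SE) between AG-haESC and E14 (95% interval -0.83 to 0.38, adjusted p = 0.65), and -0.0065 ± 0.32 between AG-haESC and MEF (-0.70 to 0.69, adjusted p = 0.988). Between E14 and MEF it was 0.22 ± 0.35 (-0.54 to 0.97, adjusted p = 0.628). These intervals leave out a 2-fold difference in either direction, and the other 2 probe sets, which read close to the array medians, passed no test.

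Il6st, which encodes the gp130 chain shared by receptors of the interleukin-6 family, was higher in MEF than in the stem cells on all 4 of its probe sets. Of these 4, 1421239_at exceeded the array medians in MEF only, so it entered the test through MEF and adds no support. On 1452843_at the AG-haESC arrays read 9.57, 9.53, 9.50, 9.44 and 9.21, the E14 arrays 9.31, 9.20 and 9.29, and the MEF arrays 12.28 and 12.14. Both MEF arrays lay far above the others, and the stem cell groups overlapped. AG-haESC was lower than MEF by 6.78-fold (difference -2.76 ± 0.15, adjusted p = 7.87e-08), and E14 was lower than MEF by 7.70-fold (-2.94 ± 0.17, adjusted p = 1.39e-07). AG-haESC and E14 differed by 0.18 ± 0.13 (-0.11 to 0.47, adjusted p = 0.413). On 1460295_s_at and 1437303_at the differences from MEF were -2.94 and -3.88 for AG-haESC and -2.82 and -3.62 for E14. On 1421239_at every stem cell array lay below its median, which bounds the difference at 2.93-fold or more for AG-haESC and 2.77-fold or more for E14. That probe set was made from the same sequence record as 1460295_s_at, so these 2 are not separate evidence. Without MEF replicate 2 the differences on 1421239_at were -2.86 for AG-haESC and -2.92 for E14, and both of its calls were lost.

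Jak1, the kinase bound to gp130, was higher in MEF too, on all 3 probe sets against E14 and on 2 of 3 against AG-haESC. On 1433805_at it read 9.77, 10.05, 9.89, 10.74 and 10.64 in AG-haESC, 9.76, 9.93 and 9.39 in E14 and 11.81 and 11.78 in MEF. No stem cell array reached the MEF values. AG-haESC was lower than MEF by 2.98-fold (-1.58 ± 0.27, adjusted p = 0.00043) and E14 by 4.29-fold (-2.10 ± 0.29, adjusted p = 0.000113). AG-haESC and E14 overlapped, with a difference of 0.52 ± 0.23 that did not pass (0.012 to 1.04, adjusted p = 0.173).

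The 3 Jak1 probe sets stem from the same sequence record. On 1433803_at the differences from MEF were -1.88 ± 0.26 for AG-haESC and -2.04 ± 0.29 for E14, and AG-haESC and E14 differed by 0.16 ± 0.23. The dimmer 1433804_at varied more, at 6.43, 8.44, 8.08, 8.61 and 8.11 in AG-haESC and 6.84, 5.66 and 7.74 in E14. AG-haESC replicate 1 was the low array of its group and fell within the E14 range. The difference between these groups was 1.18 ± 0.52 and did not pass (adjusted p = 0.162), but it passed without AG-haESC replicate 1 (1.56, adjusted p = 0.0352) and without E14 replicate 3 (1.68, adjusted p = 0.0469). AG-haESC did not differ from MEF past the test on this probe set (-0.81 ± 0.59, adjusted p = 0.271). E14 was lower than MEF there (-1.99 ± 0.64, adjusted p = 0.0225), which did not pass when E14 replicate 2, MEF replicate 1 or MEF replicate 2 was left out (adjusted p = 0.0718, 0.113 and 0.0758).

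Stat3, the transcription factor at the end of the relay, was higher in MEF on its 2 brighter probe sets. On 1426587_a_at it read 9.33, 9.78, 9.72, 10.24 and 10.04 in AG-haESC, 10.05, 9.78 and 10.28 in E14 and 11.52 and 11.47 in MEF. The MEF arrays were above all stem cell arrays, which overlapped among themselves. AG-haESC was lower than MEF by 3.19-fold (-1.67 ± 0.23, adjusted p = 8.33e-05) and E14 by 2.75-fold (-1.46 ± 0.25, adjusted p = 0.000495), and 1460700_at gave -1.68 ± 0.16 and -1.42 ± 0.18. The difference between AG-haESC and E14 was -0.21 ± 0.20 on the former (-0.65 to 0.22, adjusted p = 0.533) and -0.26 ± 0.14 on the latter (-0.57 to 0.055, adjusted p = 0.272).

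The Stat3 probe sets did not all read alike. On 1459961_a_at MEF read 7.83 and 7.26, AG-haESC 7.60, 7.81, 7.38, 6.39 and 7.32, and E14 8.29, 7.88 and 8.07. All E14 arrays lay above all AG-haESC arrays here, and E14 lay above MEF, the reverse of the brighter probe sets. None of these differences passed: it was -0.78 ± 0.31 for AG-haESC against E14 (adjusted p = 0.126), -0.24 ± 0.35 for AG-haESC against MEF (0.585) and 0.53 ± 0.38 for E14 against MEF (0.27). The dimmest, 1424272_at, read close to the array medians and did not differ from MEF past the test. It gave -0.23 ± 0.37 for AG-haESC and -0.29 ± 0.40 for E14 (limma, adjusted p = 0.627 and 0.58). With the mean of all 4 Stat3 probe sets the differences from MEF fell below 2-fold, at -0.96 for AG-haESC and -0.66 for E14 (adjusted p = 0.000973 and 0.0159).

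Socs3, the feedback inhibitor that STAT3 induces and whose upstream match is printed above, differed from MEF in the other direction than Il6st, Jak1 and Stat3 and was higher in the stem cells. On 1455899_x_at it read 11.73, 12.06, 11.28, 11.91 and 12.29 in AG-haESC, 11.80, 12.35 and 11.70 in E14 and 10.41 and 10.79 in MEF. Every stem cell array lay above both MEF arrays. AG-haESC was higher than MEF by 2.38-fold (1.25 ± 0.25, adjusted p = 0.00145) and E14 by 2.55-fold (1.35 ± 0.28, adjusted p = 0.00177). The groups did not overlap on 1456212_x_at and 1416576_at either. The former gave 0.81 ± 0.20 and 1.04 ± 0.22 (adjusted p = 0.00548 and 0.00211) and the latter 0.93 ± 0.26 and 0.96 ± 0.28 (adjusted p = 0.0104 and 0.0146), so that all passed the adjusted p and 1 of these 4 values reached 2-fold. Their side of the 2-fold line moved with the setting: 1456212_x_at was at 0.99 for E14 with median scaling, and 1416576_at reached 1.15 for AG-haESC and for E14 after quantile normalization. It also reached 1.09 for AG-haESC without AG-haESC replicate 3, and for E14 1.01 without E14 replicate 1 and 1.03 without E14 replicate 3. With the mean of the 3 probe sets AG-haESC stood 0.997 above MEF (adjusted p = 0.0021). AG-haESC and E14 differed by -0.096 ± 0.22 on the leading probe set (-0.58 to 0.39, adjusted p = 0.824), by -0.24 ± 0.18 and by -0.031 ± 0.23.

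**Figure D2:**
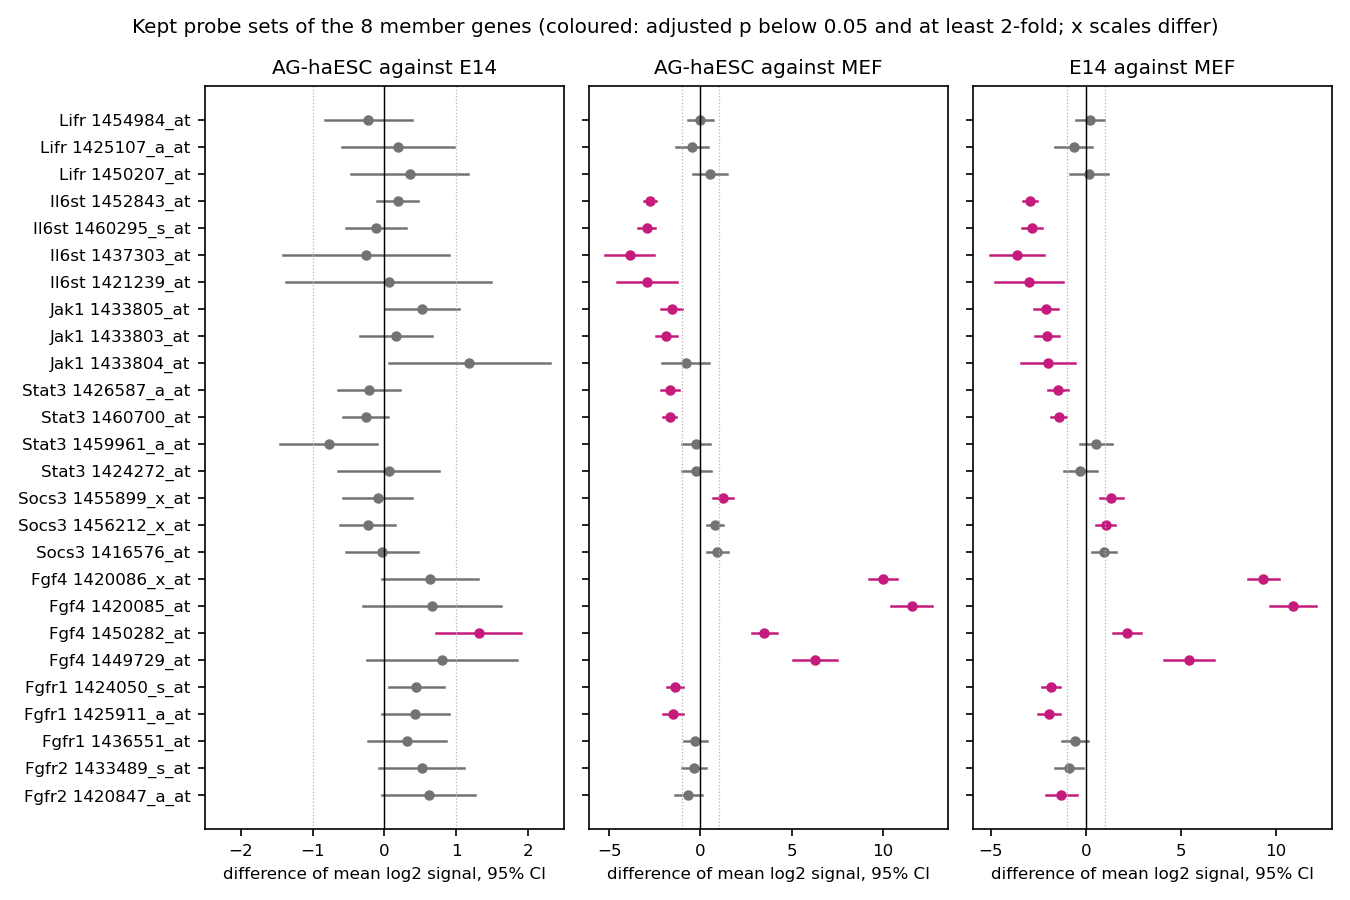
Differences of mean log2 signal with 95% intervals for the 26 tested probe sets in the 3 comparisons, where coloured points passed the adjusted p of 0.05 and a 2-fold difference and dotted lines mark 2-fold. A single point, 1450282_at of Fgf4, is coloured in AG-haESC against E14, while the coloured points of Il6st, Jak1, Stat3 and Fgfr1 lie left of 0 and those of Socs3 and Fgf4 right in both comparisons with MEF.

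Fgf4, the growth factor that embryonic stem cells secrete, was the member with the largest differences, present in both stem cell groups and below the array median in MEF on 3 of its 4 probe sets. On 1420086_x_at it read 12.51, 12.12, 11.78, 11.56 and 12.39 in AG-haESC, 11.76, 11.92 and 10.64 in E14 and 1.81 and 2.37 in MEF. E14 replicate 3 was the lowest stem cell array and both MEF arrays were near the bottom of the scale. With MEF put at the array medians, AG-haESC was at least 68.1-fold higher and E14 at least 43.9-fold higher. The fit of the signals as deposited gave adjusted p = 3.9e-09 and 1.65e-08 (limma). With all signals raised to at least the array median these were 4.71e-08 and 2.95e-07. On 1420085_at the bounds were 72.9-fold and 46.0-fold. On the dimmer 1449729_at they were 2.04-fold and 1.17-fold, and raising all signals to at least the array median left an E14 difference of 0.33 (adjusted p = 0.437). These 3 probe sets share a sequence record, so they repeat each other. They exceeded the array medians in stem cells only, so they entered the test through the stem cell arrays.

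Fgf4 also gave the one call between the stem cell groups. On 1450282_at, made from a separate record, the AG-haESC arrays read 9.48, 9.33, 9.17, 9.56 and 9.21, the E14 arrays 8.59, 7.62 and 7.90, and the MEF arrays 6.36 and 5.34. The 3 groups were fully separated, in the order AG-haESC, E14, MEF. AG-haESC was higher than E14 by 2.49-fold (1.32 ± 0.27, 0.72 to 1.91, adjusted p = 0.00908), and with any 1 array of either group left out the difference stayed between 1.11 and 1.59 with an adjusted p of at most 0.0465. The other 3 probe sets pointed the same way and did not pass: 0.63 ± 0.31 on 1420086_x_at (-0.039 to 1.30, adjusted p = 0.21), 0.67 ± 0.44 on 1420085_at (0.361) and 0.80 ± 0.48 on 1449729_at (0.309). On these 3 the lowest stem cell array was E14 replicate 3, which had the highest primed marker sum, though a link was not tested. Without E14 replicate 3 the differences on these probe sets were 0.23, 0.27 and 0.58, while that of 1450282_at was 1.25 (adjusted p = 0.019). Against MEF, 1450282_at gave 3.50 ± 0.31 for AG-haESC (adjusted p = 3.09e-06) and 2.18 ± 0.34 for E14 (0.000253).

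**Figure D3:**
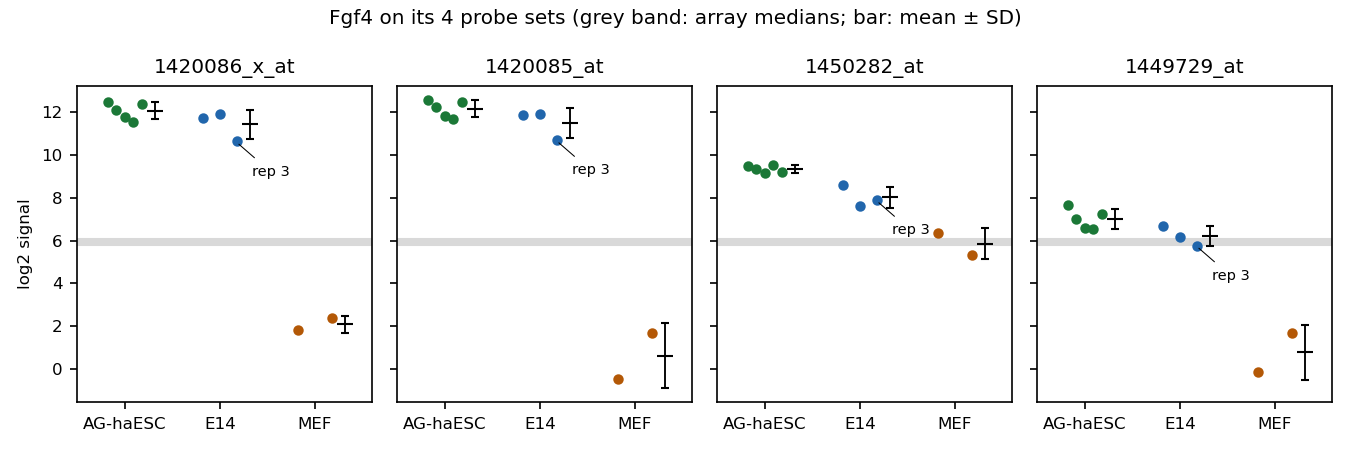
Log2 signal of Fgf4 on each of its 4 probe sets, with a dot for each array, the group mean ± SD as a bar and the array medians as a grey band. All 5 AG-haESC arrays lie above all 3 E14 arrays on 1450282_at, while on the other 3 AG-haESC and E14 overlap and E14 replicate 3 is the lowest stem cell array.

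Fgfr1, a receptor tyrosine kinase for FGF4 and the receptor most associated with FGF signalling in embryonic stem cells, was higher in MEF. On 1424050_s_at it read 10.05, 9.73, 9.58, 9.75 and 10.28 in AG-haESC, 9.50, 9.54 and 9.25 in E14 and 11.35 and 11.20 in MEF. The MEF arrays stood above all others, and the AG-haESC arrays above the E14 arrays by a small gap. AG-haESC was lower than MEF by 2.63-fold (-1.40 ± 0.20, adjusted p = 0.000113) and E14 by 3.59-fold (-1.84 ± 0.22, adjusted p = 3.12e-05), and 1425911_a_at gave -1.51 ± 0.25 and -1.94 ± 0.27. The third probe set, 1436551_at, stayed short of the threshold at -0.28 ± 0.29 and -0.59 ± 0.31 (adjusted p = 0.443 and 0.137). Between AG-haESC and E14 the 3 probe sets gave 0.44 ± 0.17 (0.066 to 0.82), 0.43 ± 0.21 and 0.31 ± 0.25, and none passed (adjusted p = 0.12, 0.222 and 0.461).

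Fgfr2, a second FGF receptor, which acts in extraembryonic lineages of the embryo, overlapped between AG-haESC and both other groups. On 1433489_s_at it read 8.88, 8.15, 8.52, 8.38 and 9.34 in AG-haESC, 7.82, 8.04 and 8.55 in E14 and 8.97 and 9.04 in MEF. All E14 arrays lay below both MEF arrays. No call was made: the difference was 0.52 ± 0.27 for AG-haESC against E14 (-0.070 to 1.11, adjusted p = 0.24), -0.35 ± 0.31 for AG-haESC against MEF (-1.03 to 0.32, 0.36) and -0.87 ± 0.34 for E14 against MEF (0.0485, below 2-fold). Without E14 replicate 3 the last of these was -1.08 (adjusted p = 0.0196) and was called. It was also called with the mean of the probe sets (-1.08, adjusted p = 0.0116) and with array weights (-1.09, 0.00239). A fit with a block for replicate number, which leaves out E14 replicate 3, called it as well (-1.08, 0.000881). On 1420847_a_at E14 was lower than MEF by 2.43-fold (-1.28 ± 0.37, adjusted p = 0.0134), which rested on both fibroblast arrays (adjusted p = 0.0769 without MEF replicate 1 and 0.0598 without MEF replicate 2). AG-haESC and E14 differed there by 0.62 ± 0.30 (adjusted p = 0.207).

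The rest of both pathways was followed in 10 lists of genes, each gene by its brightest tested probe set. Of 13251 genes, 4.38% were called higher and 3.61% lower in AG-haESC than in E14. For AG-haESC against MEF these shares were 19.6% and 22.5%, and for E14 against MEF 20.8% and 21.1%. The 8 members gave 0 calls between AG-haESC and E14 when each was read by its leading probe set, with 2 higher and 0 lower at an unadjusted p below 0.05 (limma). Against MEF each stem cell group had 2 members higher and 4 lower.

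Of 5 measured LIF family ligands 2 were higher in AG-haESC than in E14, and of 3 further receptors that pair with gp130 or bind its ligands, 1. Osm, oncostatin M, was at 7.67 ± 0.58 (SD, n = 5) against 6.24 ± 0.083 (n = 3), a difference of 1.43 ± 0.34 (adjusted p = 0.0191), though not past the threshold when E14 replicate 1 (0.0682) or E14 replicate 2 (0.0563) was left out. Il6 was at 5.23 ± 0.71 against 1.05 ± 0.66 (adjusted p = 0.000548), but both means lie below the array medians, so no fold is given, and with signals raised to the medians the difference was -0.046 (adjusted p = 0.862). Osmr, the oncostatin M receptor, was at least 1.21-fold higher (adjusted p = 0.0275), which failed when any 1 of AG-haESC replicates 2 and 3 or E14 replicates 1 and 2 was dropped (0.0557 to 0.114). Its difference was 0.30 with signals raised to the medians (adjusted p = 0.58), 0.69 with the mean of its probe sets (0.306) and 0.90 with a pseudocount of 32 (0.038), none of them called, and the fit of these 2 groups alone gave an adjusted p of 0.0609. Il6 and Osmr were both far higher in MEF, where Osmr read 12.52 and Il6 9.41, and the fibroblast marker sum given above ran higher in AG-haESC (4599 to 14778) than in E14 (2876 to 5245), with overlap. The part of fibroblast RNA in these values was not tested. Lif itself was at 7.36 ± 0.82 in AG-haESC, 6.81 ± 0.62 in E14 and 8.40 in MEF, and did not differ beyond the spread between the stem cell groups (0.54 ± 0.44, adjusted p = 0.465).

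Within the LIF branch downstream of the receptor few genes were called between the stem cell groups. Of all genes 4.38% were called higher and 3.61% lower there, so few calls do not set this branch apart. None of 8 further JAK and STAT genes and none of 14 inhibitors was called between AG-haESC and E14 (limma), while at an unadjusted p below 0.05 3 and 2 of them were lower and 0 higher. Of 11 target genes of STAT3 1 was lower, Junb, an immediate-early transcription factor, at 6.98 ± 0.21 against 8.25 ± 0.21 (-1.26 ± 0.19, adjusted p = 0.00164), while at an unadjusted p below 0.05 3 targets were higher and 1 lower. Against MEF the targets went both ways, and each stem cell group had 6 higher and 4 lower. Tfcp2l1, a naive pluripotency factor, was at least 51.9-fold higher in AG-haESC and at least 23.6-fold higher in E14 than in MEF. Cebpd, a factor of the acute-phase response, was lower in both, with differences of -3.84 ± 0.27 and -3.57 ± 0.29. The mean of its probe sets gave -2.40 for AG-haESC. Jak2, a kinase related to Jak1, was lower than in MEF in AG-haESC (-1.87 ± 0.26) and in E14 (-2.10 ± 0.28). Stat4 was at least 5.23-fold and at least 3.83-fold higher.

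In the FGF branch, 1 of 12 measured ligands was higher in AG-haESC than in E14 and 2 were lower. Fgf15, an endocrine FGF that is also made in the early embryo, was at least 4.18-fold lower (4.88 ± 0.66 against 8.02 ± 0.83, adjusted p = 0.00271). Fgf8, a ligand of gastrulation, read at least 1.44-fold below E14 (adjusted p = 0.0428), and dropping AG-haESC replicate 1, 2 or 5 or any 1 of the E14 arrays took its adjusted p above 0.05 (0.0777 to 0.121). Nor was it called with signals raised to the medians (-0.52, adjusted p = 0.116) or with median scaling (adjusted p = 0.0541). Fgf13, an intracellular FGF homologue, was higher by 1.48 ± 0.38 (adjusted p = 0.0281). Its adjusted p was 0.0532 to 0.0567 with AG-haESC replicate 1, 3, 4 or 5 left out, and the difference was 0.85 with E14 replicate 3 left out. The mean of its probe sets gave 0.75 (adjusted p = 0.149), array weights gave 0.88, and without the variance trend the adjusted p was 0.0582, so the call was lost in each.

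Among 13 receptors, proteoglycan co-receptors and binding proteins, 3 were higher in AG-haESC than in E14 and 0 lower (1 lower at an unadjusted p below 0.05, limma). They were the heparan sulfate carriers Sdc4 (11.60 ± 0.50 against 9.72 ± 0.23, difference 1.88 ± 0.25, adjusted p = 0.000638), Gpc4 (1.82 ± 0.30, adjusted p = 0.00253) and Sdc2 (1.42 ± 0.22, adjusted p = 0.00185). Such proteoglycans present FGFs to their receptors. With the mean of its probe sets Sdc4 was at 0.90 (adjusted p = 0.0211), below 2-fold and not called. All 3 were also lower in E14 than in MEF, with differences of -1.43 ± 0.31 for Sdc4, -3.45 ± 0.37 for Gpc4 and -4.36 ± 0.28 for Sdc2. AG-haESC was lower than MEF for Gpc4 (-1.63 ± 0.34) and Sdc2 (-2.93 ± 0.25) but not for Sdc4, whose mean was 11.60 in AG-haESC and 11.15 in MEF (0.45 ± 0.28, adjusted p = 0.198). The fibroblast marker sum, 4599 to 14778 in AG-haESC and 2876 to 5245 in E14, stands beside the differences of Gpc4 and Sdc2, and its part was not tested. Gpc4 lies on chromosome X, and the part of ploidy in its difference was not tested either. Fgfr3 differed by 0.41 ± 0.29 between AG-haESC and E14 (-0.23 to 1.05, adjusted p = 0.406) and Fgfr4 by -0.90 ± 0.39 (-1.76 to -0.034, adjusted p = 0.166), so none of the 4 FGF receptor genes was called on its leading probe set. The list of heparan sulfate synthesis also holds Sulf1 and Sulf2, which trim the chains and do not build them. Of its 10 measured genes, 8 were lower in AG-haESC than in MEF and 9 in E14 than in MEF, with 0 higher in each (also 0 at an unadjusted p below 0.05, limma). The largest differences were those of Sulf1, which trims sulfate groups (-4.44 ± 0.46 and -2.99 ± 0.50), and Hs6st2, which adds them (-4.03 ± 0.35 and -4.68 ± 0.38). Sulf1 was also the 1 member of that list called between the stem cells, at -1.45 ± 0.40 in AG-haESC (adjusted p = 0.036). It was -0.86 without E14 replicate 3 (0.0659), and the adjusted p also rose past 0.05 when AG-haESC replicate 1, 2, 4 or 5 or E14 replicate 2 was dropped (0.0518 to 0.0757). Quantile normalization (0.0501), the fit of 2 groups (0.0564) and the fit without the trend (0.0691) lost the call as well, and array weights gave -0.85.

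**Figure D4:**
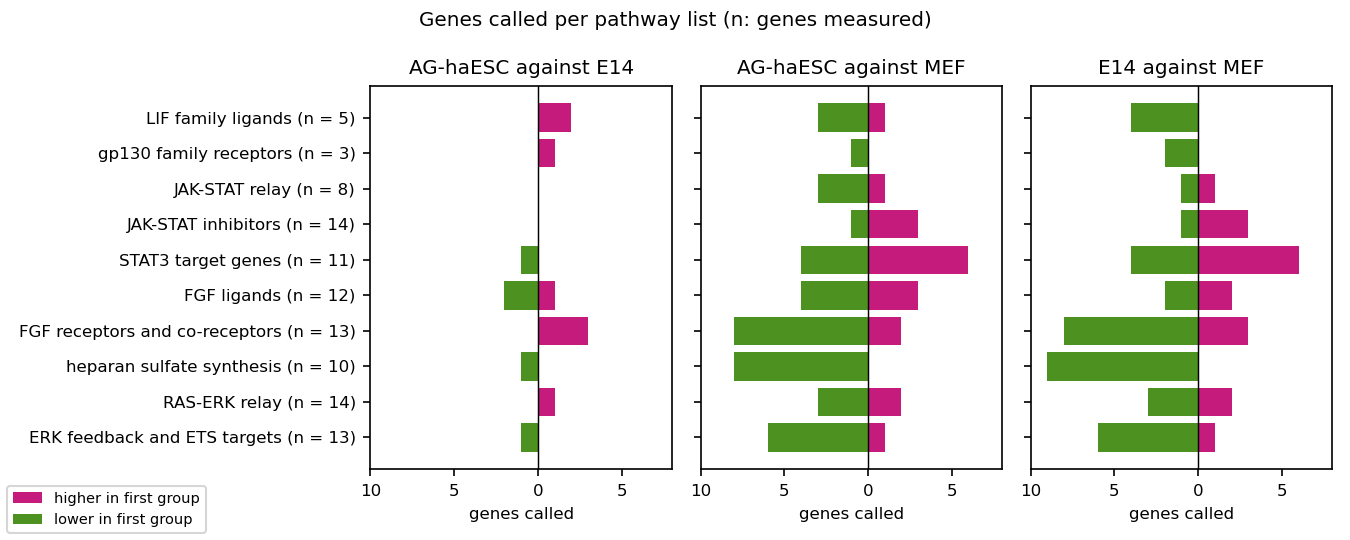
Numbers of genes called higher (right) and lower (left) in the first group of each comparison, for 10 lists of LIF and FGF pathway genes with the number measured in brackets. Few bars appear in AG-haESC against E14, where 4.38% of all genes were called higher and 3.61% lower. The heparan sulfate synthesis list, which includes Sulf1 and Sulf2, lies to the left in both comparisons with MEF, with 8 and 9 of 10 genes.

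Further down the FGF branch, 1 of 14 genes of the RAS-ERK relay was higher in AG-haESC than in E14 and 0 lower (3 in each direction at an unadjusted p below 0.05, limma). It was Araf, a RAF kinase, by 1.01 ± 0.21 (adjusted p = 0.00973), just past 2-fold. The mean of its probe sets gave 0.39 (adjusted p = 0.19), so the call rests on the brightest one. On that probe set the difference was 0.90 to 0.99 without AG-haESC replicate 3, 4 or 5 or E14 replicate 3, 0.88 with array weights and 0.98 with a pseudocount of 32. Araf lies on chromosome X, as do Fgf13 and Gpc4, which were also called higher in AG-haESC than in E14. Sdc4 and Sdc2, called higher as well, lie on chromosomes 2 and 15. The part of ploidy in these differences was not tested. Of 13 feedback inhibitors and ETS-type targets of ERK 1 was lower, the inhibitor Spred1 (-1.03 ± 0.26, adjusted p = 0.026), and 0 were higher (also 0 at an unadjusted p below 0.05, where 5 were lower). Spred1 read -0.60 without E14 replicate 3, and its adjusted p was 0.0532 and 0.0527 with AG-haESC replicates 1 and 5 dropped in turn. It fell below 2-fold with quantile normalization (-0.98), median scaling (-0.95), a pseudocount of 32 (-0.99) and array weights (-0.71), and did not pass without the trend (0.052). Against MEF 1 was higher and 6 were lower in each stem cell group, among them Spry1 (-3.22 ± 0.23 and -2.49 ± 0.25) and Flrt3 (-3.42 ± 0.33 and -2.94 ± 0.36). In the relay 2 genes were higher and 3 lower than in MEF in each stem cell group. The adaptor Gab1 was higher by 2.32 ± 0.16 in AG-haESC and 2.64 ± 0.17 in E14. Gab2 was lower, at -1.77 ± 0.50 and -2.88 ± 0.55. Also lower were Sos1 in AG-haESC (-1.44 ± 0.25) and Ptpn11 in E14 (-1.43 ± 0.13). With the mean of their probe sets Gab2 (-0.94) and Sos1 (-0.54) were not called in AG-haESC.

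For each member the 3 genes with the most similar pattern over the 10 arrays were found by Pearson's r of log2 signals, among the 13251 genes. They are a description over 10 arrays of which the 2 MEF arrays stand far from the rest, and carry no test. For Fgf4 these were Mreg, Spc25 and Spint1 (r between 0.996 and 0.998 over 10 arrays, 0.798 to 0.893 over the 8 stem cell arrays). For Il6st they were S1pr3, Ddr2 and Mybph (0.995 to 0.997, and 0.706 to 0.761). Fgfr1 was closest to Itm2a, Plxnb2 and Hhat (0.989 to 0.996, and 0.949 to 0.979). Jak1 was closest to Ap5s1, Oxct1 and Cpne1 (0.976 to 0.991, and 0.893 to 0.973). Stat3 was closest to Mecom, Amot and Igf2r (0.970 to 0.980, and 0.776 to 0.898). Socs3 was closest to Nkx2-5, Ube2o and Nid2 (0.961 to 0.970, and 0.861 to 0.929). Lifr was closest to Tfip11, Qser1 and Dlgap1 (0.930 to 0.934, and 0.945 to 0.953). Fgfr2 was closest to Kctd15, Polm and Zbtb33 (0.881 to 0.911, and 0.870 to 0.921). The genes were picked on arrays that include these 8, so the second range is no separate check.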

How the data were processed

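The deposited table holds signal intensities on a linear scale for 10 arrays, made by the authors with MAS5 according to the submitters' processing notes. Detection calls were not used here. The 2% trimmed mean was 500.0 in every array, so levels are relative within an array. Signals were taken to log2 without a pseudocount. Of 45101 probe sets 64 controls were left out, 34945 paired with 1 symbol, 932 with several and 9160 with none listed.

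All 10 arrays entered 1 limma 3.58.1 fit (R 4.3.3) of 3 group means, with 7 residual degrees of freedom and limma's trend option. Two-sided p-values were adjusted by Benjamini-Hochberg over the 27505 probe sets tested, and the procedure was tested on simulated data. A group below the medians on all its arrays was put at those medians, which makes the fold a bound. Unless stated otherwise, the adjusted p beside such a bound comes from the fit of the signals as deposited. The number of arrays limits the precision. E14 arrays are of a single line and the labels do not say whether MEF arrays are of separate embryos, so p-values measure the spread between these arrays. Members and lists were chosen with earlier results of these data known. All members were named. Called list genes were picked from the 3 with the largest difference per list and comparison, and not all of these were described. Those not described against MEF include Myc, Gbx2, Spred3, Fgf21, Fgf7 and Fgf5. Lif, Fgfr3 and Fgfr4 were named whatever they did. Listed genes without a tested probe set of a single symbol were not analysed here. Alternatives were another normalization, scaling, pseudocount, floor, filter, unit, fit, weights and leaving out each array. Deviations of E14 and MEF replicates of the same number correlated at r = -0.022, so the numbers were not taken as pairs.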

Additional observations from a re-analysis of the deposited data

Results flagged for a closer look

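On the Jak1 probe set 1433804_at the array of AG-haESC replicate 1 read 6.43 and stood far below the other 4 lines, which read 8.08 to 8.61. The gap to its neighbour was 0.756 of the group's range, above the critical share of 0.71 for 5 arrays. This was 1 of 26 probe sets tested for such a gap, and chance gives about 1 in 20.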

How the results depend on the processing

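With 1 probe set per gene the calls over all features were 1102, 5596 and 5581 for AG-haESC against E14, AG-haESC against MEF and E14 against MEF, and with the mean of the probe sets 1106, 5550 and 5524, against 1997, 10769 and 10688 probe sets, with fewer features tested. The members then gave 0, 6 and 6 calls with 1 probe set per gene and 0, 4 and 6 with the mean, against 1, 15 and 18. Array weights gave 3321 calls over all probe sets and 2 among the members for AG-haESC against E14, and leaving out 1 array gave 1 to 2 members there. With the replicate block, fitted to E14 and MEF replicates 1 and 2, 20 member probe sets were called, against 18 without it. Single values that reversed were Il6 to -0.046 between the stem cells with a floor at the array median and Il6ra to 0.024 between E14 and MEF with the mean of probe sets, where it was -1.16 on the brightest. No called difference of a member probe set reversed under the alternatives run. The causes of these changes were not tested. Signals near the array medians limit what can be read from the dim probe sets.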
